A study of Mus musculus with 6 samples.

Results

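Gm28928 is an annotated long intergenic noncoding RNA gene of the mouse that spans 340283 bases of chromosome 1, and 2 much shorter genes, Gm37717 and Gm28299, lie inside its first intron on the same strand. These 3 genes were selected on their measured levels in the comparison described here, between hippocampi injected with an antisense oligonucleotide (ASO) against the noncoding RNA Snhg11 and hippocampi injected with a control ASO. Counts were analysed for Gm37717 and Gm28299, which are 2 of the 55401 genes in the count tables. The level of Gm28928 itself was not analysed here, and only its structure and sequence are described. Because the difference between the groups chose these genes, their values are given as a description and without a test.

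The series compared 3 Control-ASO and 3 Snhg11-ASO samples of dorsal hippocampus. All mice were wild type (WT) littermates of the Ts65Dn line, a mouse model of Down syndrome, and were injected at 4 months of age into the dentate gyrus (DG) of both hemispheres. The knockdown samples carry the genotype label Snhg11 KD, although the knockdown came from the injected ASO and not from an allele. Snhg11-ASO directs RNase H to Snhg11, and Control-ASO is a scrambled gapmer of equal length that targets no gene. Tissue was taken 3 days after the injection, and the whole dorsal hippocampus was sequenced, so uninjected cells were included. The legend for the RT-qPCR of this tissue describes the mice as males, and the methods describe 3 mice per group. One Snhg11-ASO sample was dropped as an outlier in the study without being named, and all 6 samples were kept here.

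GENCODE and RefSeq, the 2 main catalogues of mouse genes, draw this region differently. In GENCODE M21 the protein-coding gene nearest downstream is Dpp10, which starts 460.198 kb beyond the end of Gm28928. In RefSeq the record of Dpp10 is longer at its 5′ end and begins inside exon 1 of Gm28928, so that the introns of Gm28928 and both short genes lie within RefSeq Dpp10 on its strand. Dpp10 encodes a membrane protein of the dipeptidyl peptidase family that has no peptidase activity. It is an auxiliary subunit of Kv4 potassium channels, which carry the A-type current of neuronal dendrites, and it is known to have alternative first exons. Counting alone cannot tell RNA of a Dpp10 intron from RNA of a short gene annotated there on the same strand.

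Gm28928 (ENSMUSG00000100851) runs on the minus strand of chromosome 1 of GRCm38, chr1:124505757-124846039, and has 3 exons. Exon 1 has 321 bases, exon 2 has 67 and exon 3 has 1055, which gives 1443 bases of exon. Intron 1 measures 335.421 kb. The start of RefSeq Dpp10 falls inside exon 1, with 224 bases of the exon before it and 97 within it. A RefSeq noncoding gene on the plus strand, Gm35355, starts 19 bases from Gm28928 and runs in the opposite direction. The first 300 bases of exon 1 are shown because both gene records begin here, and the capitals mark the bases inside RefSeq Dpp10 (GRCm38 sequence from the GENCODE transcript, minus strand, chr1:124845740-124846039).
Gm28928 exon 1: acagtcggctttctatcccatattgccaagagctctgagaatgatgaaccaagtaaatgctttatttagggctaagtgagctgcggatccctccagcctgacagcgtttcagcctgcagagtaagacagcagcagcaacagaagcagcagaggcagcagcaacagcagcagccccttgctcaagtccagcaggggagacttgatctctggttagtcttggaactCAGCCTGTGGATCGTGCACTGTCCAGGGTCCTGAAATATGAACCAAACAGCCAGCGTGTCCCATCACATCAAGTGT

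This stretch is 51.7% G and C and holds 22 CAG trinucleotides and 5 CG dinucleotides. The first ATG after the RefSeq Dpp10 start lies 37 bases past it. Read from that ATG, 20 codons without a stop lead to the end of exon 1. The frame then meets a stop in exon 2, 3 bases after the exon begins. Exon 2 is shown with that stop in capitals, because it is where the frame begun in exon 1 closes in the Gm28928 transcript (chr1:124510231-124510297, minus strand).
Gm28928 exon 2: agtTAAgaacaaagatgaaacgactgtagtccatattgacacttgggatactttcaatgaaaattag

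Gm37717 (ENSMUSG00000102240) is classed as TEC, a GENCODE label for transcribed regions whose status is not settled by experiment. It is a single exon of 3027 bases, chr1:124824702-124827728, and starts 18.311 kb downstream of the Gm28928 start. Its sequence is 37.8% G and C, below the median of 49.2% over 141767 GENCODE transcripts. It holds 7 copies of AATAAA, the letters of the main polyadenylation signal. The 120 bases at its annotated start are shown because they are the counted sequence nearest the start of the locus, with an A-rich run (chr1:124827609-124827728, minus strand).
Gm37717 start: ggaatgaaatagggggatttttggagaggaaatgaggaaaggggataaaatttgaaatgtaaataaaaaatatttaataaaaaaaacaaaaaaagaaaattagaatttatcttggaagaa

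Gm28299 (ENSMUSG00000101006) is a processed pseudogene, a copy of a spliced messenger RNA returned to the genome. It spans chr1:124615191-124615596 in 2 exons of 127 and 212 bases and starts 230.443 kb downstream of the Gm28928 start. The best match of its 339 bases among transcripts of protein-coding genes was Btf3, which encodes a transcription and nascent-chain factor. Identity was 83.2% over 363 aligned columns. The longest run shared exactly with Btf3 was 36 bases. The second exon is shown with that run in capitals, since it holds the longest stretch identical in Btf3 (chr1:124615191-124615402, minus strand).
Gm28299 exon 2: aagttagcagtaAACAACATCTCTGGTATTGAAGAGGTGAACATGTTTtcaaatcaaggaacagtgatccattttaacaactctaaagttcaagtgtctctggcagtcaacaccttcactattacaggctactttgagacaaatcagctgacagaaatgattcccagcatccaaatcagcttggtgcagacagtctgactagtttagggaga

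**Figure D1:**
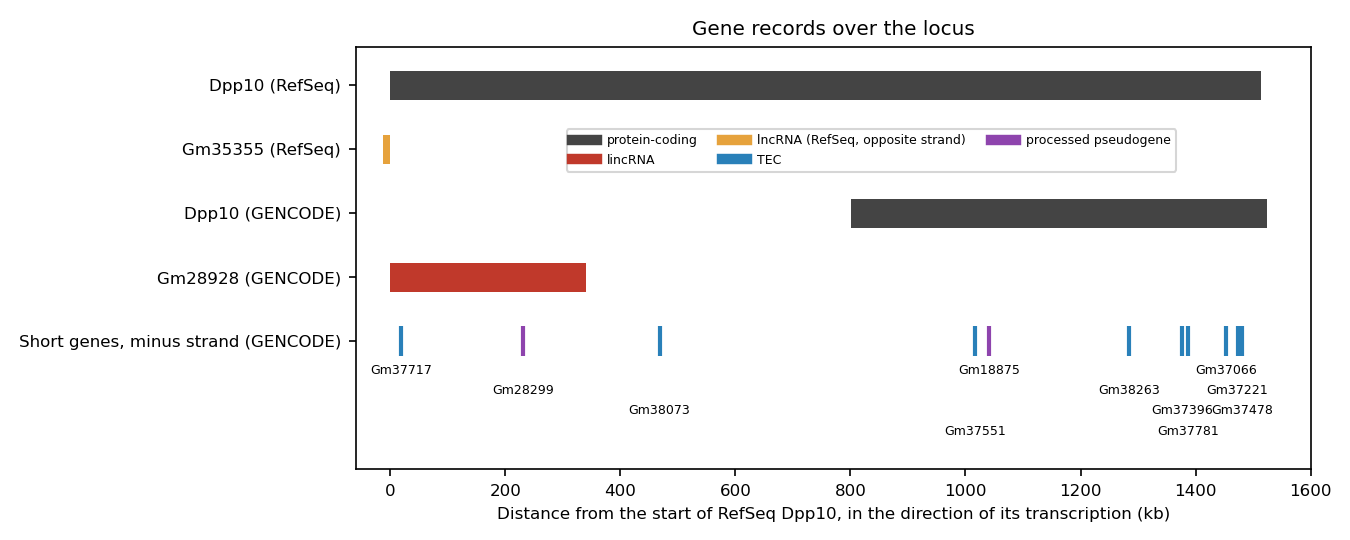
Gene records over the locus, plotted by distance in kb from the start of RefSeq Dpp10 in the direction of its transcription. Bars are the spans of long genes and ticks are short genes on the minus strand, coloured by annotated type. Gm37717, Gm28299 and Gm38073 lie between the RefSeq start of Dpp10 and its GENCODE start at 800.256 kb.

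Levels are given as CPM, counts scaled to 1000000 gene pairs per library with TMM factors. In what follows, 3 values of a group always stand in the order of replicates 1, 2 and 3. Snhg11, the target, was at 551, 436 and 209 CPM after Control-ASO and at 139, 65.4 and 69.4 CPM after Snhg11-ASO. The target was thus lower in every Snhg11-ASO sample, and Control-ASO replicate 3 had the least of the controls. Gene counts on the sequenced strand summed to between 28951250 and 43997537 read pairs per sample. Over all genes tested, Snhg11-ASO replicate 1 stood apart, with a median root-mean-square log2 difference of 0.873 from the other 5 samples, against 0.519 to 0.616 for each of those. At Gm37717 and Gm28299, Control-ASO replicate 3 was the highest sample. Defining markers of granule cells, the main neurons of the DG, summed to 237 to 283 CPM in Control-ASO and 245 to 315 CPM in Snhg11-ASO. No gene of any marker list was at 0.

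Gm37717 was far lower after Snhg11-ASO. The Control-ASO samples held 161, 71 and 377 read pairs on it, which is 5.47, 2.11 and 11.2 CPM. The Snhg11-ASO samples held 39, 26 and 46 pairs, or 1.02, 0.622 and 1.05 CPM. Every knockdown sample was below every control, the knockdown samples lay close together and the controls were spread over a 5.30-fold range. The mean was 6.26 ± 4.59 (SD, n = 3) CPM in Control-ASO and 0.900 ± 0.241 (SD, n = 3) CPM in Snhg11-ASO, or 14.4% of the control mean. The log2 fold change of Snhg11-ASO over Control-ASO in the edgeR fit was -2.79 (SE 0.61).

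Gm28299 gave nearly the same picture at a lower level. The Control-ASO samples held 56, 23 and 130 pairs, or 1.90, 0.684 and 3.86 CPM. The Snhg11-ASO samples held 10, 12 and 16 pairs, or 0.262, 0.287 and 0.366 CPM. The groups did not overlap, and Control-ASO replicate 3 was again the highest sample and replicate 2 the lowest control. The mean was 2.15 ± 1.60 (SD, n = 3) CPM in Control-ASO and 0.305 ± 0.0544 (SD, n = 3) CPM in Snhg11-ASO, which is 14.2% of the control mean. The log2 fold change was -2.80 (SE 0.63). The lowest count, 10 pairs, has an exact 95% Poisson interval of 4.80 to 18.4, and the lowest control count, 23, one of 14.6 to 34.5. These intervals cover counting error alone.

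**Figure D2:**
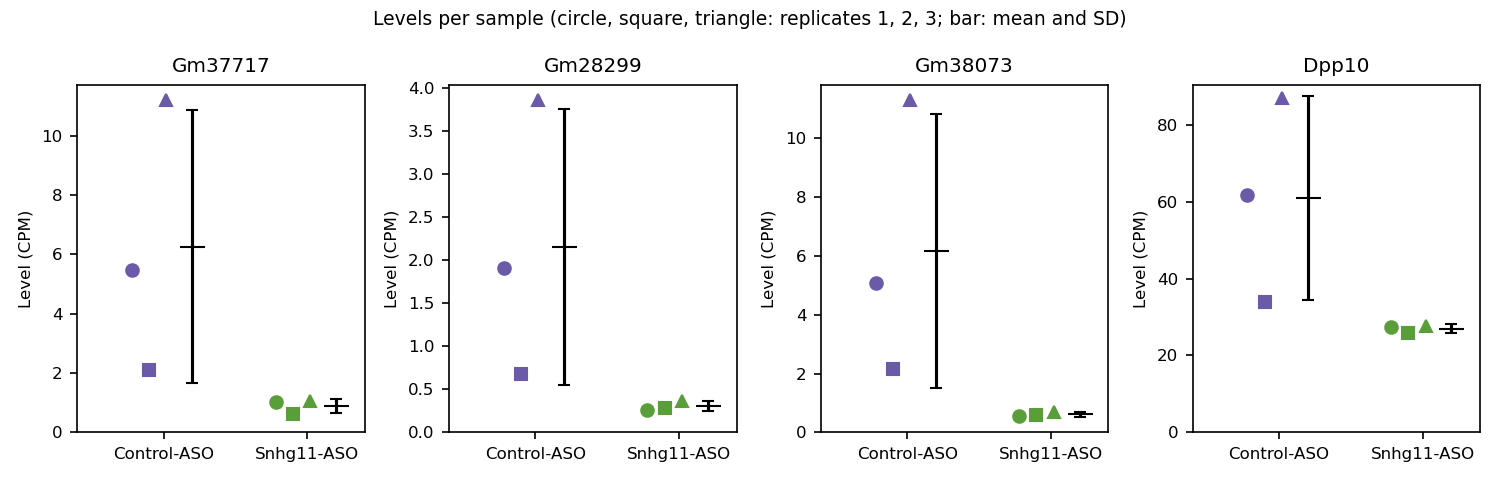
Level in CPM of Gm37717, Gm28299, Gm38073 and the annotated exons of Dpp10 in each sample, with symbols for replicates 1, 2 and 3 and a bar for the mean and SD of each group (n = 3). In each panel all Snhg11-ASO samples lie below all Control-ASO samples and Control-ASO replicate 3 is the highest.

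Ordered by log2 fold change from the lowest, Gm28299 was number 5 and Gm37717 number 6 of 19969 genes tested. Both of the 2 members with counts had all Snhg11-ASO samples below all Control-ASO samples, as did 7.7% of all genes tested. edgeR's quasi-likelihood test called 0.0% of the 19969 genes at an adjusted p under 0.05, with 1619 at an unadjusted p under 0.05, whereas DESeq2 called 258, of which 159 or 0.796% of all genes tested were lower in Snhg11-ASO. Because the difference chose the members, nothing is read from these shares. The size of the difference rested partly on Control-ASO replicate 3. Without it the log2 fold change was -2.07 for Gm28299 and -2.07 for Gm37717, and without both it and Snhg11-ASO replicate 1 it was -1.96 and -2.16. In bulk tissue, fewer cells of a type and less RNA per cell cannot be told apart.

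Both genes were read from the annotated strand. The opposite strand held 2 pairs on Gm28299 against 247 on its own strand over the 6 samples, and 0 on Gm37717 against 720. The ratio of the 2 genes was compared between samples. Pairs on Gm37717 were 2.88, 3.09 and 2.90 times those on Gm28299 in the Control-ASO samples. The ratios were 3.90, 2.17 and 2.88 in the Snhg11-ASO samples, and 2.91 over all samples together. Among the Control-ASO samples the ratio thus varied less than the level of either gene did, but among the Snhg11-ASO samples it did not. Both genes were chosen for their difference between the groups, so nothing is read from the ratio across groups. Its highest and lowest values were both in knockdown samples, where Gm28299 had 10 and 12 pairs.

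Per kb of exon the order was reversed, since Gm28299 is the shorter gene. Its mean density in Control-ASO was 6.34 RPKM (CPM per kb of exon), against 2.07 RPKM for Gm37717, and it was the denser gene in each of the 6 samples. Pairs that overlap an exon in part are counted in full, which raises the density of a gene as short as Gm28299. Btf3, whose sequence Gm28299 resembles, did not share the decrease. The Control-ASO samples had 37.8, 43.1 and 38.0 CPM of Btf3 and the Snhg11-ASO samples 48.0, 44.2 and 47.2 CPM (log2 fold change 0.23, SE 0.10, edgeR adjusted p = 0.616). Pairs that map to several places are not counted, and Gm28299 had a sequence match in 24 genes, of which 16 were processed pseudogenes.

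The nearest tested gene downstream of Gm28928, Gm38073, behaved like both members although it lies outside Gm28928. Gm38073 (ENSMUSG00000103914) is another TEC gene, chr1:124375578-124379242, 126.515 kb beyond the end of Gm28928 and inside RefSeq Dpp10 on its strand. The Control-ASO samples had 5.06, 2.17 and 11.3 CPM, the Snhg11-ASO samples 0.551, 0.598 and 0.710 CPM. The groups did not overlap, and the controls kept the order of Gm37717 and Gm28299. Its mean in Snhg11-ASO was 10.04% of that in Control-ASO. The log2 fold change was -3.31 (SE 0.60), with an adjusted p of 0.314 in edgeR and of 8.2e-06 in DESeq2, so the call depended on the test. Without Control-ASO replicate 3 the log2 fold change was -2.54 in edgeR.

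The annotated exons of Dpp10 (ENSMUSG00000036815, chr1:123321471-124045559 in GENCODE) were also lower, but by less. The Control-ASO samples had 61.7, 33.9 and 86.9 CPM on them, the Snhg11-ASO samples 27.5, 25.8 and 27.7 CPM. All knockdown samples lay below all controls, and again the knockdown samples were close together and Control-ASO replicate 3 was the highest. The mean was 60.8 ± 26.5 (SD, n = 3) CPM in Control-ASO and 27.0 ± 1.07 (SD, n = 3) CPM in Snhg11-ASO, or 44.4% of the control. The log2 fold change of -1.17 (SE 0.31) had an adjusted p of 0.492 in edgeR and of 0.0233 in DESeq2. Without Control-ASO replicate 3 it was -0.83.

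The ratio of an upstream gene to Dpp10 itself was compared within each sample. Gm38073 was used because the members' own difference had chosen them, but its values had also been seen. The log2 ratio of Gm38073 to Dpp10 exons was -3.61, -3.97 and -2.95 in the Control-ASO samples. It was -5.64, -5.43 and -5.29 in the Snhg11-ASO samples. The mean ratio was lower by 1.95 on the log2 scale in Snhg11-ASO, and the groups did not overlap (p = 0.1 in a two-sided exact permutation test, the least that 3 against 3 allows). With samples kept in pairs by replicate number, the exact permutation p was 0.25, the least that 3 pairs allow. With each sample left out in turn the difference lay between -2.18 and -1.67. The same ratio differed by -1.46 for Gm37717 and by -1.43 for Gm28299, given without a test. Because this comparison was chosen after the values of Gm38073 were seen, its p-values give no independent answer about the upstream genes.

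Within GENCODE Dpp10, 8 short genes on the same strand passed the filter on low counts, and their differences were near that of the Dpp10 exons in size. All 8 were lower in Snhg11-ASO, with log2 fold changes from -1.57 to -0.90 and a median of -1.31, against 0.01 over all genes tested. In 6 of the 8 all knockdown samples lay below all controls, as in 7.7% of all genes tested. Each of the 8 had an unadjusted p under 0.05, as did 1619 of all 19969 genes, but 0 were called by edgeR (adjusted p from 0.492 to 0.607) and 0 by DESeq2. Counting cannot tell RNA of these genes from RNA of Dpp10 introns, so the 8 may not be independent of one another. Nothing is read from the counts of 6 and 8 beside the shares of all genes. Gm37551, the nearest to the GENCODE start, stood at 2.72, 1.28 and 3.44 CPM in the controls against 0.603, 0.957 and 1.01 CPM after Snhg11-ASO. Gm18875, a processed pseudogene, had a log2 fold change of -1.46 (SE 0.50). That of Gm38263 was -1.57 (SE 0.42) and that of Gm37396 was -1.28 (SE 0.44). The other 4, Gm37781, Gm37066, Gm37221 and Gm37478, lie near the 3′ end and were named after their values were seen, with means in Snhg11-ASO of 53.4%, 39.4%, 47.0% and 45.7% of Control-ASO.

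Density along RefSeq Dpp10 was described per kb of exon. Over Gm37717, Gm28299 and Gm38073 together the Control-ASO samples had 1.77, 0.706 and 3.75 RPKM, the Snhg11-ASO samples 0.261, 0.214 and 0.303 RPKM. Over the 8 genes inside GENCODE Dpp10 the Control-ASO samples had 0.620, 0.306 and 0.776 RPKM, the Snhg11-ASO samples 0.221, 0.207 and 0.264 RPKM. The first set holds both members, which were chosen for their difference, and the short Gm28299, so nothing is read from it. Gm38073 alone had 2.23, 1.93 and 3.97 times the density of the 8 genes in the controls and 0.681, 0.787 and 0.735 times in the knockdown samples. Gm38073 was thus denser than the pool of the 8 genes in every control and less dense than that pool in every knockdown sample. This is a description of a gene whose values had been seen. Single genes did not all follow the pool. Gm18875 was denser than Gm38073 in Control-ASO replicates 1 and 2, at 1.54 and 0.607 RPKM against 1.38 and 0.592 RPKM. Gm38263 was less dense than Gm38073 in every knockdown sample. Among single genes, mean density in Snhg11-ASO ran from 0.143 RPKM at Gm38263 to 0.901 RPKM at Gm28299.

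**Figure D3:**
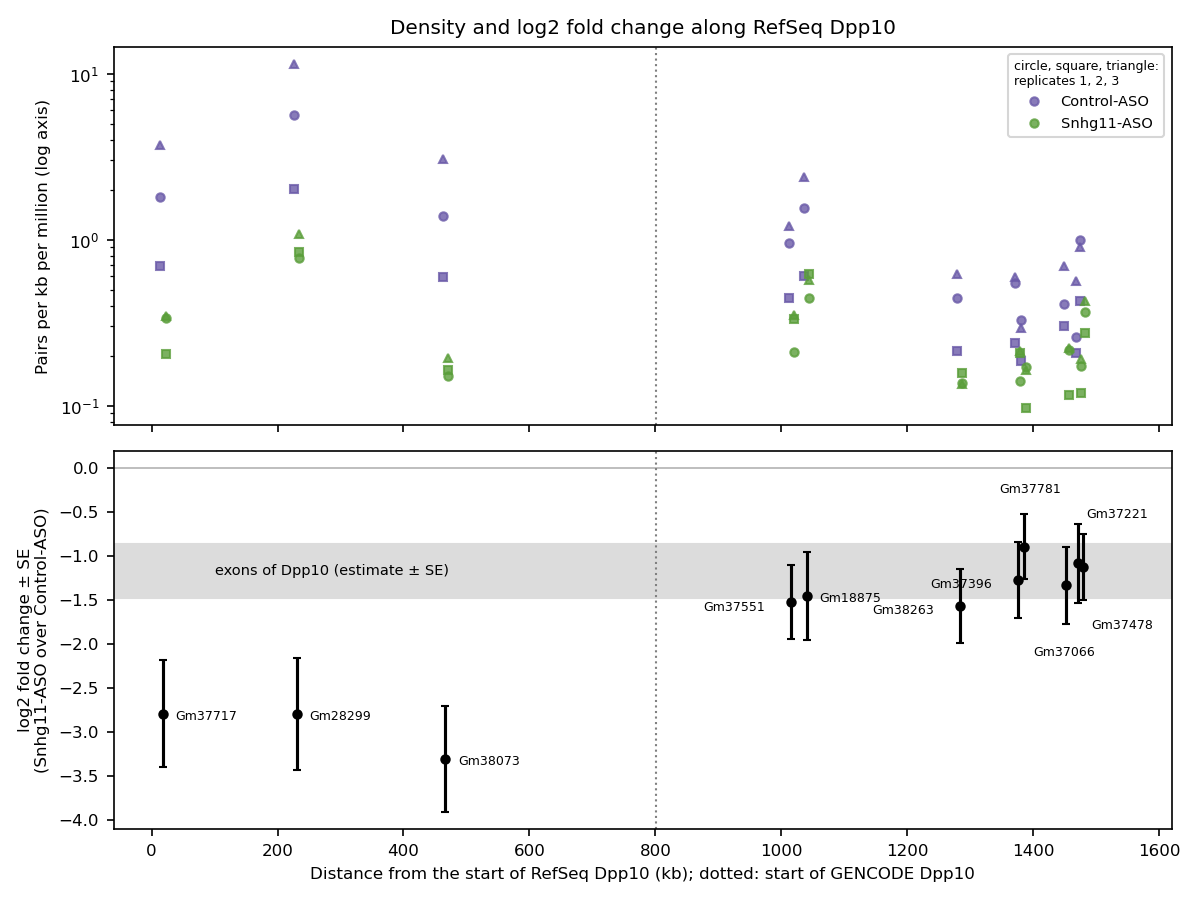
Top, RPKM (pairs per kb of exon and per 1000000 gene pairs) on a log axis in each sample, and bottom, log2 fold change with its SE, for short genes on the minus strand by distance in kb from the RefSeq start of Dpp10. The dotted line is the GENCODE start of Dpp10 and the grey band the estimate and SE for its exons. The 3 genes before the dotted line have log2 fold changes from -3.31 to -2.79 and the 8 after it from -1.57 to -0.90.

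Beyond RefSeq Dpp10 the median difference of the neighbours was smaller. Of 33 other genes of the count tables within 2 Mb of Gm28928, 14 were at 0 in every sample and 17 were tested. Of these 17, 15 were lower and 2 higher in Snhg11-ASO, with a median log2 fold change of -1.13. An unadjusted p under 0.05 was found for 12, beside 1619 of all 19969 genes. Inside RefSeq Dpp10 on its strand lay 10 of the 17, each at an unadjusted p under 0.05, and these may not be independent of one another. edgeR called 0, as over all genes, and DESeq2 called 2 as lower, Gm38073 and Dpp10, where it called 0.796% of all genes as lower. Outside RefSeq Dpp10, 7 were tested, all of them upstream of Gm28928, so none lay beyond the 3′ end of Dpp10. Of these 7, 5 were lower, with a median of -0.61 and 2 at an unadjusted p under 0.05. Neither edgeR nor DESeq2 called any. The nearest upstream coding gene, Actr3, an actin-related subunit of the Arp2/3 complex, had a log2 fold change of 0.14 (SE 0.10, adjusted p = 0.761 in edgeR). Slc35f5, a solute carrier, was at 0.23 (SE 0.22), and Lypd1, a Ly6 family protein that binds nicotinic receptors, at -0.17 (SE 0.29), and both signs turned without Snhg11-ASO replicate 1. Nckap5 had 13.8, 10.6 and 9.50 CPM in the controls and 6.03, 9.07 and 7.15 CPM in the knockdown samples (log2 fold change -0.61, adjusted p = 0.562), without overlap. The TEC genes Gm37161 and Gm37936 had overlapping groups. The most negative value of the 7 was that of Gm38177, a TEC gene named after its values were seen, at -1.23 (SE 0.40, adjusted p = 0.550 in edgeR) with at most 13 pairs in a sample.

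Gm28928 is one of many noncoding genes with very long spans, and the rest of these are given as a description of that class. Among 355 noncoding genes spanning at least 100 kb, 116 were tested, and 86 of these were lower and 30 higher in Snhg11-ASO. Over all genes tested, 9653 were lower and 10316 higher. Their median log2 fold change was -0.23, against 0.01 over all genes. In 20 of the 116 all knockdown samples were below all controls, beside 7.7% of all genes tested. edgeR called 0, with 10 of the 116 at an unadjusted p under 0.05, beside 1619 of all 19969 genes. DESeq2 called 2, Gm41414 and Gm49685, beside 258 of all 19969 genes, and nothing is read from these 2 counts. The lowest were Gm41414 at -1.59 (SE 0.37), B130024G19Rik at -1.59 (SE 0.73) and Gm32647 at -1.54 (SE 0.52). B130024G19Rik had overlapping groups, with 255, 34 and 84 pairs in the controls. The highest were Gm36723 at 2.57 (SE 1.28), Gm6999 at 1.26 (SE 0.68) and Gm14005 at 1.14 (SE 0.64), each with overlapping groups.

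Markers of other cell types were read beside Gm37717 and Gm28299. Rorb, Cux2 and Tbr1, transcription factors or receptors of cortical projection neurons, summed to 86.1, 85.8 and 125 CPM in the controls and to 79.8, 67.7 and 77.5 CPM in the knockdown samples. All knockdown sums lay below all control sums, and Control-ASO replicate 3 was the highest, as it was for both members. Tbr1 had 23.1, 23.7 and 34.2 CPM in the controls and 17.1, 19.2 and 16.4 CPM in the knockdown samples. In 1 of these 3 genes, Tbr1, all knockdown samples lay below all controls, as in 7.7% of all genes tested. An unadjusted p under 0.05 was found for 1 of the 3, as for 1619 of all 19969 genes. In contrast to the members, Control-ASO replicates 1 and 2 were close in this sum, but single genes differed. Cux2 had 25.0, 18.7 and 39.8 CPM in the controls, the order of the members, and 20.9, 16.3 and 16.6 CPM in the knockdown samples. Rorb had 38.1, 43.4 and 51.1 CPM in the controls and 41.8, 32.2 and 44.4 CPM in the knockdown samples. The part of neocortical tissue in the difference at Gm37717 and Gm28299 was not tested. The interneuron list summed to 368 to 423 CPM in Control-ASO and 316 to 360 CPM in Snhg11-ASO. Of its 4 genes, 2 lay below all controls and 1 had an unadjusted p under 0.05, beside the same shares of all genes. The CA3 list summed to 29.4 to 44.9 CPM in Control-ASO and 42.3 to 44.8 CPM in Snhg11-ASO. Coch, of this list, had the control order of the members, at 4.86, 1.40 and 9.68 CPM in the controls. It had 2.70, 1.39 and 1.47 CPM in the knockdown samples, with overlap. The rest of the list, Bok and Iyd, went the other way, with Snhg11-ASO means of 131% and 159% of Control-ASO, also with overlap. Prkcd, of the thalamus list, was higher in all knockdown samples, at 31.2, 35.0 and 32.5 CPM against 19.2, 21.4 and 17.6 CPM. The rest of that list, Tcf7l2, Rora and Lef1, had Snhg11-ASO means of 114%, 97.7% and 67.8% of Control-ASO, each with overlap. Choroid plexus markers ranged from 35.7 to 1870 CPM in Control-ASO and from 64.8 to 1282 CPM in Snhg11-ASO, so neither group was free of them.

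**Figure D4:**
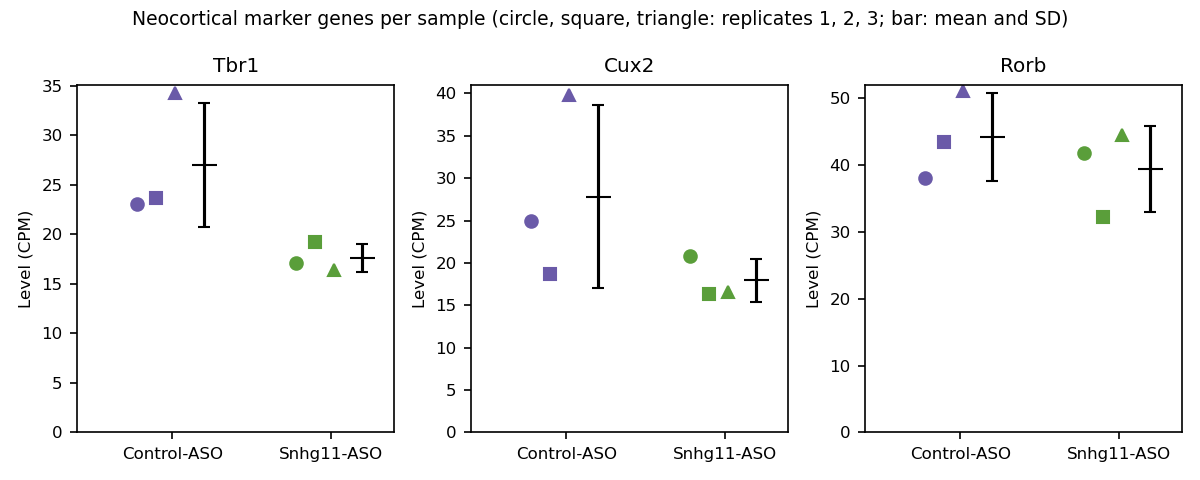
Level in CPM of 3 neocortical marker genes in each sample, with symbols for replicates 1, 2 and 3 and a bar for the mean and SD of each group (n = 3). Control-ASO replicate 3 is the highest sample for each gene, and the groups are apart for Tbr1 and overlap for Cux2 and Rorb.

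The genes most like the members across samples were named from Pearson's r of log2 CPM over the 6 samples, as a description. For Gm28299 these were Ids, a lysosomal sulfatase (r = 0.997), Fgf12, Ptger3, a prostaglandin E receptor, Gm38073 (r = 0.993) and Tmem132a, with Dpp10 at rank 9 (r = 0.991). For Gm37717 they were Gm37426 (r = 0.996), Ntsr1, the neurotensin receptor, Kiss1r, the kisspeptin receptor, Lgi2 and Gm28299 (r = 0.987), with Dpp10 at rank 6 and Gm38073 at rank 7. These points share the libraries and the difference between the groups. With the mean of each group taken out, the leading genes included Adgra1, Ptger3, Pgap1 and Cpxm2 for Gm28299 and were Lrrk2, Fam234b, Tead2, Trim66 and Fbln1 for Gm37717. The lists of 5 shared 0 genes in either case. Snhg11 was at r = 0.619 with Gm28299 and 0.673 with Gm37717 over the 6 samples, and at -0.57 and -0.39 once the group means were out. Control-ASO replicate 3, the highest control at both members, had the least Snhg11 of the controls.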

How the data were processed

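The members and gene lists were chosen with earlier results of these data known. The authors prepared stranded, ribosomal RNA-depleted libraries, sequenced them in pairs and aligned the reads to mm10 (GRCm38) with STAR (version 2.5.2a in the submitters' processing notes). The deposited values are unnormalized counts of read pairs per gene. The annotation used for counting is not given in the sources used here. Reverse-strand counts were used. Summary lines that name no gene (43.5% to 51.4% of pairs) were left out.

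Genes were matched to GENCODE M21 (55141 of 55401), filtered with filterByExpr (minimum count 10), scaled with TMM and fitted with edgeR's quasi-likelihood test (R 4.3.3, edgeR 4.0.16, Benjamini-Hochberg adjustment over all genes, 0.05), with DESeq2 1.42.0 as an alternative. The fit was checked on simulated counts. RPKM divides CPM by exon length. The planned ratio of intronic to exonic density within Gm28928 was not made. RefSeq exons of Dpp10 were not used here.

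Named genes were the members, Snhg11, the 6 nearest tested neighbours on each side, the 5 genes most correlated with each member and the 3 lowest and 3 highest long noncoding genes. Others were named after their values were seen, as stated, and some results under this rule are not reported here.

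After subtraction of the group means, samples that share a replicate number correlated across genes at 0.297, 0.179 and 0.103 for numbers 1, 2 and 3. Correlations between samples of different numbers were not computed, so these values do not establish pairs. The main fits had no replicate block. Pairs by number were used only in alternatives and in a permutation test. Any such pairing comes from the values and from no label. Nothing in the labels says that replicates came from separate mice, so the spread may be partly technical.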

Additional observations from a re-analysis of the deposited data

How the results depend on the processing

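Gm28299 kept its direction in 18 alternatives, with log2 fold changes from -3.22 to -1.96, and Gm37717 in 18, from -3.21 to -2.07. Leaving out single samples gave ranges of -3.22 to -2.07 and of -3.21 to -2.07. With the replicate number as a block the values were -2.56 and -2.56, the log2 fold change of Gm38073 was -3.05 and that of Dpp10 -1.07, and the block changed no call. Offsets for genomic span gave -2.76 for Gm28299 and -2.78 for Gm37717. These offsets follow the annotated span of each gene itself, so for both short members they do not reflect the span of RefSeq Dpp10 around them. Among genes with long spans, the same offsets moved Dpp10 from -1.17 to -0.89 and Nckap5 from -0.61 to -0.30.

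DESeq2 called 2 neighbouring genes on the reverse strand and 2 on both strands, where edgeR called 0, and 2 and 1 long noncoding genes, where edgeR called 0. With each sample left out, edgeR called 0 to 0 in both lists. The cause was not tested. Over 18 alternatives the adjusted p of Gm38073 ranged from 3.0e-06 to 0.951 and that of Dpp10 from 0.0195 to 0.979. Slc35f5 reversed to -0.044 without Snhg11-ASO replicate 1 (single samples left out, -0.044 to 0.37) and to -0.082 without both this sample and Control-ASO replicate 3. Lypd1 reversed likewise to 0.10 (range -0.38 to 0.10) and 0.023. The cause was not tested. Leaving out both samples, the set of genes inside RefSeq Dpp10 and the ratio of Gm38073 to Dpp10 were chosen after seeing the data.

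With 10 to 46 pairs per gene in Snhg11-ASO, counting error limits the ratio of Gm37717 to Gm28299. The alternatives to the density ratio within Gm28928 were not run, since that ratio was not made.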
